A study of Mus musculus with 2 samples.

Results

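Mir139, Mir744, Mir151, Mir328, Mir330, Mir361, Mir652, Mir140 and Mir674 are 9 of the 2202 miRNA genes counted in small RNA from the hippocampus of old male mice. They were chosen by their high counts in these same libraries and because each belongs to no large miRNA family, so their levels are given below as a description, with no test. The tissue, labelled as a layer of the hippocampus, came from males of the strain B6CASTF1/J, an F1 hybrid with a C57BL/6 and a castaneus parent, at 18 to 20 months. The 2 libraries form 1 group. They are labelled as biological replicates 1 and 2, carry different tissue entries and name a common donor. No treatment, genotype, age or sex was compared. Separate animals are not stated in the labels, so any spread and any p-value measure the difference between these samples, which may be technical.

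A miRNA gene encodes a hairpin that is cut to a mature strand of about the length of the reads sequenced here. The mature strand, loaded into an Argonaute protein, pairs with messenger RNAs through its seed (bases 2 to 8) and lowers their translation or stability. Many miRNA genes lie inside introns of other genes, whose transcripts carry the hairpin along. A gene with a single copy in the genome gives reads that map to 1 place, so its count is not divided among copies.

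MiRNA families are commonly grouped by shared seeds, so the mature strands are shown here first. RefSeq (GRCm38.p6) held 13 mature sequences for 7 of the 9 genes, all but Mir151 and Mir328. For Mir140 it held the 3p strand only, so the seed and matches of miR-140-5p were not checked. They are written 5′ to 3′ with the seed in capitals.
miR-139-5p: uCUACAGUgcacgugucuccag
miR-139-3p: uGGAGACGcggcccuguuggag
miR-744-5p: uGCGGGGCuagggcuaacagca
miR-744-3p: cUGUUGCCacuaaccucaaccu
miR-330-5p: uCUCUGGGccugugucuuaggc
miR-330-3p: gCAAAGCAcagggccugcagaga
miR-652-5p: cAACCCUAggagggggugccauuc
miR-652-3p: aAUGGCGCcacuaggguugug
miR-361-5p: uUAUCAGAaucuccagggguac
miR-361-3p: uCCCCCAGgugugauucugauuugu
miR-674-5p: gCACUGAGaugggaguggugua
miR-674-3p: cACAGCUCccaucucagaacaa
miR-140-3p: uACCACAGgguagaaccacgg

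No seed was shared between these genes. Of the 13 mature sequences, 9 (69.2%) had a seed found in no other gene of the table, against 68.0% of all 1738 mature sequences in it, a like share. The seed of miR-330-5p was shared with miR-326-3p. Mir326 itself had 803 counts in replicate 1, or 214 per 1000000 sense counts (CPM), and 2099 counts or 375 CPM in replicate 2. The seed of miR-330-3p was shared with Mir6240, which had 8 and 13 counts in replicates 1 and 2. The seed of miR-140-3p was shared with Mir497b, which had 1 and 0 counts. The seed of miR-674-5p was shared with Mir3473d (0 and 5 counts) and with Mir1947 (13 and 24 counts). Each of these genes was counted far below the member that has its seed. The tables give 1 count per hairpin, so they do not tell whether reads came from the 5p or the 3p arm.

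No exact second copy of a member was found among the annotated hairpins. Each of the 13 mature sequences occurred in only 1 hairpin of the RefSeq table. Over all 2202 hairpins of GENCODE M21, the longest stretch that any of the 9 shared with another hairpin was 17 nt, reached by Mir151 with Mir28c and by Mir328 with Mir6395. It was 15 nt for Mir744, 12 nt for Mir330 and Mir361, 11 nt for Mir139, Mir140 and Mir674, and 10 nt for Mir652. Sites outside annotated hairpins were not searched. Mir151 belongs with Mir28a and Mir708 to a small family, but no mature sequence of Mir151 was held, so a shared seed was not checked. Of the genes listed as relatives of members (Mir28a, Mir28c, Mir708 and Mir326), 3 of 4 were detected. Among these, only Mir326 was found to share a seed with a member, Mir330. Mir28a had 931 and 1017 CPM in replicates 1 and 2, Mir708 had 2965 and 2683 CPM, and Mir28c had no count in either library.

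Replicate 1 held 10594081 reads, of which 3758318 fell on miRNA genes in sense, and replicate 2 held 16131923 reads with 5598792 such counts. Reads that mapped to several places made up 51.5% and 46.7% of them and entered no gene. Genes with at least 10 counts in both libraries were taken as detected, and 384 were. Of 7 genes listed as neuronal 4 were detected, among them Mir132 at 17813 and 15491 CPM and Mir137 at 12852 and 11601 CPM in replicates 1 and 2. The other 3, the copies of the neuronal marker Mir124a, had at most 5 counts each. Of the 5 muscle genes, Mir206 had 52.2 and 79.7 CPM, and the copies of Mir1a and Mir133a had no count in either library. Mir124a, Mir1a and Mir133a each have copies with a mature strand in common, and a read that maps to several places entered no gene, so their counts are no measure of their level. The liver gene Mir122 had 23.9 and 47.5 CPM, and the red cell gene Mir451a had 39.6 and 63.4 CPM. Counts of bulk tissue cannot tell fewer cells of a type from less RNA per cell.

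All 9 genes were detected, from rank 3 to rank 64 of 2202 by mean CPM. Together they held 14.63% of the sense counts in replicate 1 (95% Wilson interval 14.60 to 14.67%) and 16.92% in replicate 2 (16.89 to 16.95%), or 15.8% ± 1.62 (mean ± SD, n = 2 here and below). The intervals include no error but that of counting, and reads that carry no molecular identifier may be copies of 1 molecule. Mir139 alone gave 7.03% and 7.94%, and the other 8 genes gave 7.60% and 8.98%. No member had a count on the opposite strand in either library. A count of 0 there allows up to 3 counts, or 0.798 CPM in replicate 1 and 0.536 CPM in replicate 2. Unstranded and sense counts were the same for each of the 9. Over all miRNA genes the opposite strand held 287729 counts in replicate 1 and 425273 in replicate 2. How many other genes had no such count was not determined, so its lack is not shown to be particular to the members.

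**Figure D1:**
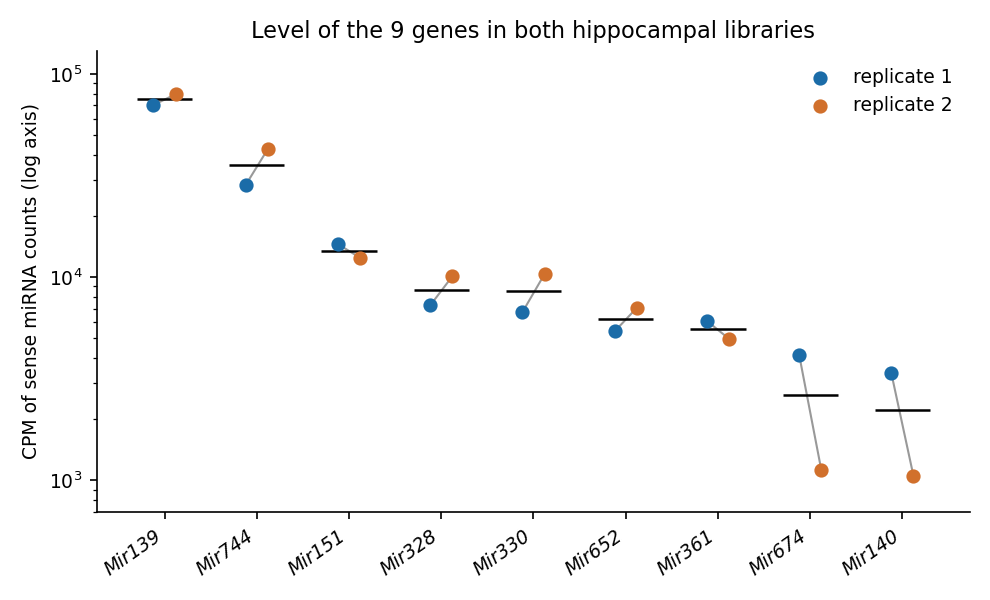
Level of each of the 9 genes in CPM (log axis) in replicate 1 (blue) and replicate 2 (orange), with the mean as a bar, in falling order of the mean. Mir139 stands highest at 70326 and 79397 CPM. Mir674 and Mir140 show the widest gaps between the libraries.

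Mir139 was the most abundant of the 9. It had 264309 counts (70326 CPM) in replicate 1 and 444528 counts (79397 CPM) in replicate 2. With 74862 ± 6414 CPM it ranked 3 of all miRNA genes, after Mirlet7g, the gene with the most counts, and Mirlet7b (81054 ± 3457 CPM). Mirlet7i came directly after it (69138 ± 10760 CPM). The hairpin (ENSMUSG00000065446.1) lies on chromosome 7 from 101475376 to 101475443 on the plus strand of mm10, inside Pde2a, the gene of a phosphodiesterase that breaks down cyclic AMP and cyclic GMP. All 10 annotated Pde2a transcripts that span it have it in an intron. In the transcript with the longest coding part it is intron 2, of 29902 nt. The overlapping gene Gm45837 also has it in an intron. Its hairpin of 68 nt is shown with the 2 mature arms in capitals, as the arms of the leading gene.
Mir139 hairpin: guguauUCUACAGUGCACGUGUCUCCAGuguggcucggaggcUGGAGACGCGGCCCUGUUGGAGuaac

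Mir744 followed at some distance, with 106809 counts (28419 CPM) in replicate 1 and 238964 counts (42681 CPM) in replicate 2. Its mean of 35550.4 ± 10085 CPM put it at rank 6. The hairpin (ENSMUSG00000076460.1, chromosome 11, 65734733 to 65734832, minus strand) lies in intron 3 of Map2k4, the gene of a kinase that activates the Jun kinases. It begins 359 nt after the exon before it, in an intron of 15588 nt. All 5 Map2k4 transcripts that span it have it in an intron.

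Mir151 had 54721 counts (14560 CPM) in replicate 1 and 69665 counts (12443 CPM) in replicate 2, or 13501 ± 1497 CPM, at rank 15. The hairpin (ENSMUSG00000065612.1, chromosome 15, 73254815 to 73254882, minus strand) lies in an intron of Ptk2, which encodes focal adhesion kinase. In the transcript with the longest coding part this is intron 23, and all 5 spanning transcripts have the hairpin in an intron. The antisense gene 1700085D07Rik runs across it on the other strand. Human miR-151 is known as a partner of this kinase in the movement of liver cancer cells.

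Mir328 and Mir330 were counted alike. Mir328 had 27271 counts (7256 CPM) in replicate 1 and 56498 counts (10091 CPM) in replicate 2, or 8674 ± 2005 CPM. Mir330 had 25264 counts (6722 CPM) and 57968 counts (10354 CPM), or 8538 ± 2568 CPM. The order of these genes was not the same in both libraries, and their levels did not differ beyond their spread. Their loci differ. The Mir328 hairpin (ENSMUSG00000070130.1, chromosome 8, 105308364 to 105308460, minus strand) lies across from Elmo3, a gene of an adaptor in cell engulfment and movement, on the opposite strand. It overlaps 12 nt of exon 14 of the Elmo3 transcript with the longest coding part, and no gene on its own strand hosts it. The Mir330 hairpin (ENSMUSG00000065543.1, chromosome 7, 19181465 to 19181562, plus strand) lies in intron 4 of Eml2, the gene of a microtubule-associated protein. That intron has 1853 nt, the shortest among the hosts, and the hairpin ends 146 nt before the next exon. Of the Eml2 transcripts that span it, 6 have it in an intron and 1 has it in an exon.

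Mir652 and Mir361 are the members on the X chromosome, of which males have a single copy. Mir652 had 20336 counts (5411 CPM) in replicate 1 and 39518 counts (7058 CPM) in replicate 2, or 6235 ± 1165 CPM. Mir361 had 22891 counts (6091 CPM) and 27847 counts (4974 CPM), or 5532 ± 790 CPM. Mir361 was the higher of the pair in replicate 1 and Mir652 in replicate 2, so their order is not settled by these libraries. The Mir652 hairpin (ENSMUSG00000076011.1, chromosome X, 142739000 to 142739097, plus strand) lies in intron 2 of Tmem164, which has 69090 nt and is the longest host intron. The Mir361 hairpin (ENSMUSG00000065510.1, chromosome X, 113074824 to 113074893, minus strand) lies in intron 9 of Chm, the gene of a Rab escort protein whose loss in people causes choroideremia, a retinal disease.

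Mir674 and Mir140 were the lowest of the 9 and the least alike between libraries. Mir674 had 15626 counts (4158 CPM) in replicate 1 and 6322 counts (1129 CPM) in replicate 2, or 2643 ± 2142 CPM. Mir140 had 12654 counts (3367 CPM) and 5885 counts (1051 CPM), or 2209 ± 1638 CPM. Although replicate 2 was sequenced deeper, it held fewer reads of both genes. Their ranks were 42 and 49 in replicate 1 but 89 and 92 in replicate 2. Mir140, known in mice for its part in cartilage development, lies with its hairpin (ENSMUSG00000065439.1, chromosome 8, 107551244 to 107551313, plus strand) in intron 16 of Wwp2, the gene of a ubiquitin ligase. Of the Wwp2 transcripts that span it, 3 have it in an intron and 1 in an exon. The Mir674 hairpin (ENSMUSG00000076376.1, chromosome 2, 117185127 to 117185226, plus strand) has no host in the annotation. It begins 2847 nt after the end of Spred1, an inhibitor of Ras signalling on the same strand. The hairpins are shown with the mature arms listed above in capitals, since these genes had the largest differences between libraries.
Mir674 hairpin: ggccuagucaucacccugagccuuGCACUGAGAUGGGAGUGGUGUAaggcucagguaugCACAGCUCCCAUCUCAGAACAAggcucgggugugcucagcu
Mir140 hairpin: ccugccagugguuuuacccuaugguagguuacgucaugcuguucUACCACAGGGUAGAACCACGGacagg

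By annotation, 7 of the 9 hairpins thus lie within a host gene on their own strand, and in an intron of the transcript with the longest coding part in all 7. Mir328 lies across from a gene and Mir674 between genes. None shares its host gene with another annotated miRNA gene on the same strand. Within 10 kb, the 9 genes had no other miRNA gene except Gm27320, which lies 463 nt from Mir328 and had no count in either library. Hosts and neighbours of other miRNA genes were not determined, so these places are not shown to be particular to the members. The libraries hold small RNA only, so host transcript levels are not measured here and no level of a host gene can be set beside its hairpin.

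**Figure D2:**
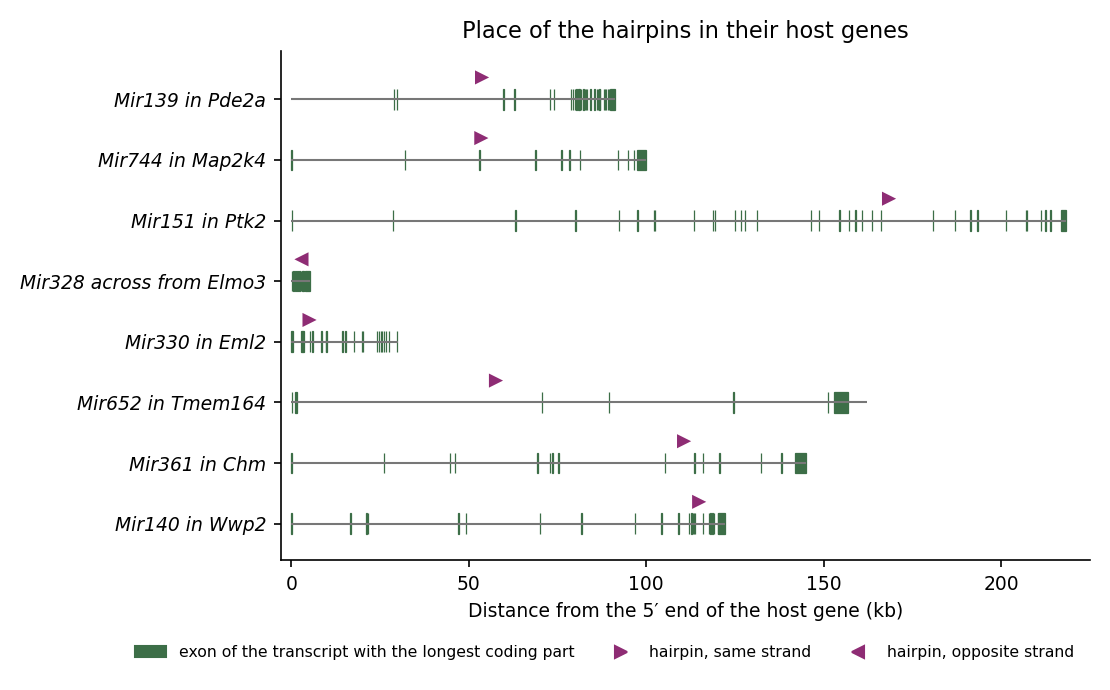
Place of 8 hairpins along their host genes, in kb from the host's 5′ end. Boxes are exons of the transcript with the longest coding part, and triangles mark the hairpins, pointing left for the opposite strand. Mir744 sits just after an exon of Map2k4, whereas Mir652 sits deep in an intron of 69090 nt in Tmem164. Mir674 has no host and is not drawn.

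The hairpins of the 7 genes with a RefSeq entry had a median GC content of 56.0%, against 50.9% for 316 hairpins of other detected genes and 51.7% for all 998 other hairpins in the table. Their median folding energy, predicted with RNAfold, was -0.50 kcal/mol per nt, against -0.43 for the other detected genes and -0.41 for all others. The ranges between quartiles overlapped, at -0.54 to -0.44 for the members and -0.48 to -0.39 for the other detected genes. For GC content they were 51.4 to 57.6% and 45.0 to 56.1%. The other genes were not matched for abundance or hairpin length (median 98 nt for the members, 82.5 nt for the other detected genes). Mir674 had the most stable predicted fold, at -60.9 kcal/mol over 100 nt, or -0.61 per nt. Mir361 had the least stable, at -28.6 kcal/mol over 70 nt, or -0.41 per nt, and also the lowest GC content, 41.4%. These energies are predictions from sequence and describe the hairpins, not their processing in this tissue.

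Set in order of mean CPM, 34 of the 36 pairs of members kept the same order in both libraries. For 32 pairs, both libraries of the higher gene lay above both libraries of the lower. The exceptions were Mir328 and Mir330, Mir330 and Mir652, Mir652 and Mir361, and Mir674 and Mir140, each of them neighbours in the order. Counting error was small beside these gaps, at 0.195% of the count of Mir139 in replicate 1 and at most 1.30%, for Mir140 in replicate 2. The SD between libraries ranged from 8.57% of the mean CPM for Mir139 to 74.1% for Mir140 and 81.0% for Mir674. It was 11.1% for Mir151, 14.3% for Mir361, 18.7% for Mir652, 23.1% for Mir328, 28.4% for Mir744 and 30.1% for Mir330. For 7 of the 9 it lay below the coefficient of variation over all detected genes (edgeR common dispersion). That was 37.2% scaled by total counts, as CPM is, and 34.4% on the TMM scale. The order of the members by spread holds in CPM and differs on the TMM scale, given below.

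No stated count separated the members from other genes. The lowest, Mir140, stood at rank 64, directly below Mir187 (2244 ± 389 CPM) and above Mir342 (2121 ± 145 CPM), neither of which is a member. Of the 64 genes at or above Mir140, 49 share no stretch of 20 nt with another hairpin, and 40 of these are not members. Directly above and below the others stood Mirlet7d and Mir99a for Mir744, Mir191 and Mir128-1 for Mir151, Mir221 above Mir328, Mir98 below Mir330, Mir99b and Mir22 for Mir652, Mir324 and Mir30d for Mir361, and Mir378a and Mir21a for Mir674.

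The counts of each gene were then set against each other by a binomial test, exact and two-sided, after TMM scaling with edgeR and with Benjamini-Hochberg adjustment over all 384 detected genes. The test asks whether these libraries differ beyond counting error and says nothing about a condition. All 9 members were called: 5 had the higher level in replicate 1 and 4 had it in replicate 2. Of all detected genes 65.1% were called, 34.1% with the higher level in replicate 1 (131 genes) and 31.0% with the higher level in replicate 2 (119 genes). Scaled by total counts, these were 76 and 195 genes. Both libraries held 1000 counts or more for 137 genes, the members among them, and 126 of these (92.0%) were called. Of these calls, 82 were higher in replicate 1 and 44 in replicate 2. The members' median absolute difference was 1.24-fold, against 1.36-fold over all detected genes and 1.33-fold over those 137 genes.

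**Figure D3:**
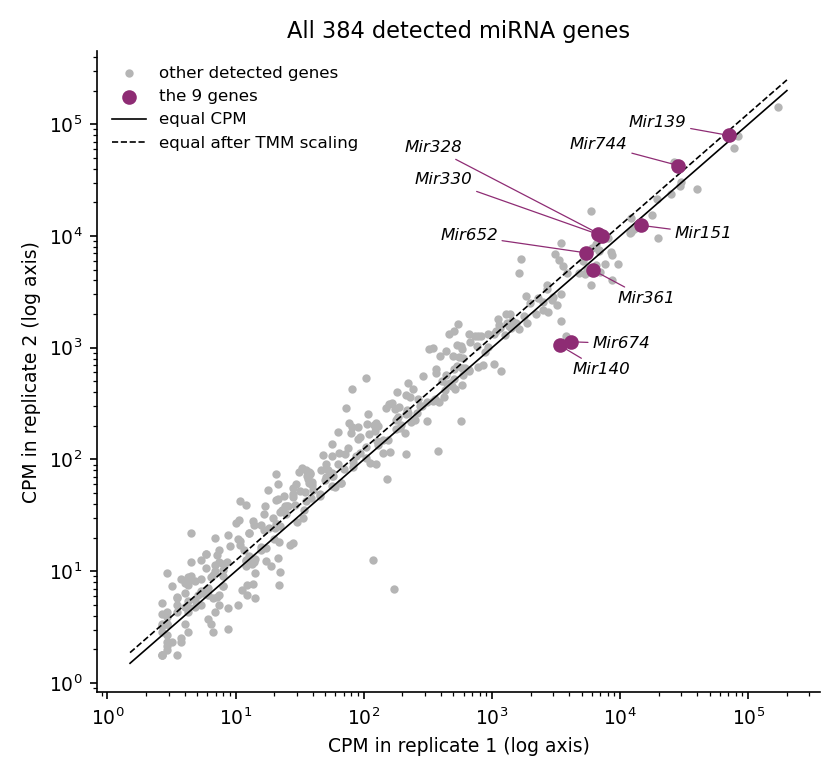
CPM in replicate 1 (x) against CPM in replicate 2 (y), both on log axes, for the 384 detected genes, with the 9 genes in purple. The solid line marks equal CPM and the dashed line equal levels after TMM scaling. Mir674 and Mir140 lie well below both lines.

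Mir674 was 4.59-fold higher in replicate 1 on the TMM scale (log2 ratio 2.20) and Mir140 3.99-fold higher (log2 ratio 2.00). By the size of this ratio they ranked 1 and 2 among the 137 well counted genes and 3 and 6 among all 384. In CPM the differences were 3.68-fold for Mir674 and 3.20-fold for Mir140. Mir361 (log2 ratio 0.61) and Mir151 (0.54) were also higher in replicate 1, by 1.53-fold and 1.46-fold. Adjusted p for each of these 4 genes, and for Mir744 and Mir139, was 1e-300 or less, the smallest value written, in the exact binomial test.

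Mir330 was 1.24-fold higher in replicate 2 (log2 ratio -0.31, exact binomial adjusted p = 2.70e-178), Mir744 1.21-fold (log2 ratio -0.27) and Mir328 1.12-fold (log2 ratio -0.16, adjusted p = 1.96e-50). Mir652 was nearest to equal on the TMM scale, 1.05-fold higher in replicate 2 (log2 ratio -0.07, exact binomial adjusted p = 1.94e-07), but in CPM it was 1.30-fold apart. Mir139 was 1.10-fold higher in replicate 1 on the TMM scale (log2 ratio 0.14), but 1.13-fold higher in replicate 2 in CPM (log2 ratio -0.18), so its direction rests on the scaling. The scales differ by a factor of 1.25, which moves the median log2 ratio of all detected genes between 0.01 (TMM) and -0.31 (CPM). The other 8 members kept their direction on both.

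**Figure D4:**
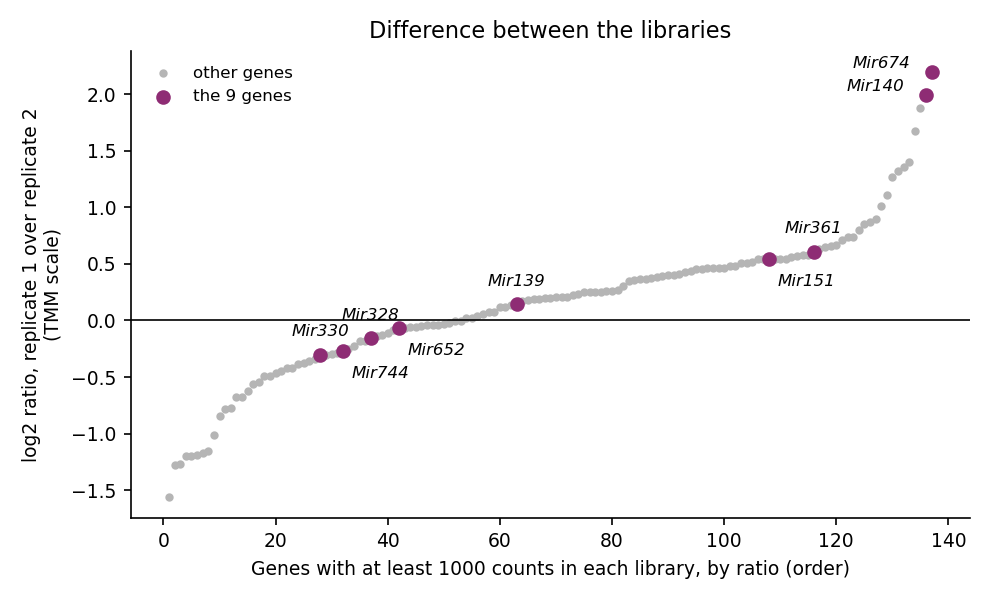
Log2 ratio of replicate 1 over replicate 2 on the TMM scale (y) for the 137 genes that reach 1000 counts in both libraries, in rising order (x), with the 9 genes in purple. Mir674 (2.20) and Mir140 (2.00) end the curve, and the other 7 lie between -0.31 and 0.61.

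Markers of other cell types also differed between the libraries. All 3 endothelial and mural genes (Mir126a, Mir143 and Mir145a) were called higher in replicate 1, as Mir674 and Mir140 were, and they summed to 22045 CPM there, against 16510 CPM for replicate 2. All 3 choroid plexus genes (Mir204, Mir1298 and Mir448) were called higher in replicate 2, with sums of 850 and 1495 CPM. Of 5 genes listed for cartilage and mesenchyme, where Mir140 is best known, Mir214 and Mir455 were detected. Both were called higher in replicate 2, and that list summed to 604 and 836 CPM. Mir199a-1 and Mir199a-2 had no count, and Mir199b had 4 and 3. These 3 hairpins have a mature strand in common in RefSeq, so their counts, and the sum of the list, do not measure that miRNA. Both astrocyte genes were called higher in replicate 1 on the TMM scale (sums of 22987 and 23043 CPM), but Mir29a was higher in replicate 2 in CPM (19511 and 21307). The oligodendrocyte genes split, 1 higher in each library (6090 and 9705 CPM). Of 3 microglial and leukocyte genes 2 were called higher in replicate 1 (812 and 762 CPM), and of the 4 detected neuronal genes 3 were (46435 and 46856 CPM), the fourth being higher in replicate 2. Of these 3, Mir128-1 was higher in replicate 2 in CPM (12185 and 14432). Mir128-1 and Mir138-1 of the neuronal list and Mir219a-2 of the oligodendrocyte list are named as copies. Reads that map to several places entered no gene, so their counts and these sums may fall short of the level. The part of these cell types in the differences of Mir674 and Mir140 was not tested.

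The gene most alike in level to each member was sought by distance in log2 CPM over the 2 libraries, within the same 137 genes and leaving out members. For both Mir674 and Mir140 it was Mir376a (3755 and 1275 CPM, distances 0.23 and 0.32). Mir151 was closest to Mir191 (15446 and 12219 CPM, distance 0.09), and Mir361 to Mir30d (5520 and 4984 CPM, distance 0.14). Mir744 was closest to Mirlet7d (26157 and 45812 CPM, distance 0.16) and Mir139 to Mirlet7b (distance 0.25). Both Mir328 and Mir330 were closest to Mir221 (8046 and 9650 CPM, distances 0.16 and 0.28), and Mir652 to Mir770 (6046 and 7724 CPM, distance 0.21). With 2 libraries such a match describes level and difference only.

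A list of 62 further miRNA genes that are not in large families was set beside the 9, and 61 matched a symbol in the files. Of these, 55 were detected and 42 called (16 with replicate 1 higher, 26 with replicate 2 higher), with a median absolute difference of 1.34-fold. The 9 members summed to 146310 and 169178 CPM in replicates 1 and 2, and this list to 56977 and 67552 CPM. The members were chosen by their high counts in these libraries, so the larger sum is no result about them. Its leading gene was Mir191 at 13833 ± 2282 CPM, between the levels of Mir744 and Mir151. Mir22 (6044 ± 3675 CPM), Mir324 (5564 ± 654 CPM), Mir335, in the imprinted gene Mest (4951 ± 543 CPM), and Mir149 (3935 ± 3180 CPM) came next, in the range of Mir652 to Mir674. Among its called genes that reached 100 counts in both libraries, the 3 widest differences were higher in replicate 2, whereas Mir674 and Mir140 were higher in replicate 1. The log2 ratio was -1.67 for Mir339, -1.56 for Mir149 and -1.16 for Mir500.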

How the data were processed

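Total RNA, with a labelled size range below 30, was taken through microRNA-seq in 2 libraries. The authors deposited raw read counts per miRNA gene, with mm10 named per the labels and GENCODE M21 in the deposited text. Which aligner and counter were run is not given in the sources used. Each table has an unstranded count and 2 stranded ones, after 4 summary lines that stayed out of library sizes. The stranded column with the larger total was used as sense.

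GENCODE M21 gave the symbols, coordinates and hosts. The host transcript described is the one with the longest coding part. Scaling and dispersion used edgeR 4.0.16 (TMM). The exact binomial test (scipy 1.17.1) ran on genes with at least 10 counts in both libraries, with adjusted p under 0.05 called. It was also run on simulated counts that held counting error only and were scaled by total counts. That run does not show how the test behaves with the spread between these libraries. With 1 group there was no contrast, so no quasi-likelihood test could be fitted. DESeq2 1.42.0 size factors were an alternative. Folding energies came from RNAfold 2.7.2. The members, lists and tests were chosen with earlier results of these data known. Named genes are the members, the genes directly above and below each in rank, the most alike gene, genes that share a seed, the gene with the most counts, and the 5 highest genes and 3 widest called ratios of the comparison list that reached 100 counts in both libraries.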

Additional observations from a re-analysis of the deposited data

How the results depend on the processing

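Of 54 log2 ratios of members under 6 other settings (DESeq2 size factors, total counts, no filter, at least 100 counts, a chi-square test and unstranded counts), 53 kept their direction and their call. The exception was Mir139, whose log2 ratio was -0.18 with total counts in place of TMM scaling. Most of the 54 had little room to change. The chi-square test leaves the ratio as it is, and unstranded counts equal sense counts for the members. Apart from total counts, the settings hardly moved the scale: they left the log2 ratio of Mir139 at 0.12 to 0.14. All 9 members were called under each of the 6, 4 of them higher in replicate 1 with total counts and 5 otherwise. Over all genes the number called ranged from 203 of 242 tested (at least 100 counts) to 271 of 384 (total counts). Without a filter it was 266 of 752, so the share called depends on which genes are tested. With total counts 28.0% of the calls were higher in replicate 1, against 52.4% with TMM. The coefficient of variation between libraries was 37.2% with total counts and 31.3% for genes with at least 100 counts in both. As a share of all reads in the table, the 9 members held 5.53%, and their median level was 2989 per 1000000 reads. Without Mirlet7g in the denominator they held 18.7%. These shares follow from the denominators. Without replicate 1 the summed share was 16.9%, and without replicate 2 it was 14.6%. With 1 library left out no difference between libraries can be computed. Depth did not limit the members, which had at least 5885 counts in each library, but 2 libraries limit every statement on spread.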

Other observations

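The detected genes with a larger ratio between the libraries than Mir140 were, apart from Mir674, Mir26a-1 (650 and 39 counts in replicates 1 and 2), Mir26a-2 (440 and 70 counts), Mir1298 (304 and 2397 counts) and Mir106b (388 and 3018 counts). These genes were chosen after their values were seen. Mir26a-1 and Mir26a-2 are copies by name, and a read that maps to several places entered no gene. Their counts and ratios are thus no measure of the level of that miRNA. Each of the genes had fewer counts in replicate 1 than Mir140, which had 12654.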
